A study of Homo sapiens with 9 samples.

Results

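The ZNF zinc finger genes of human chromosome 19 were examined in Huh7 cells, an established line from a hepatocellular carcinoma. They were taken as every protein-coding gene listed on chromosome 19 whose symbol is ZNF followed by a number and at most 1 further letter. This gave 234 of the 27421 genes in the table. Another 241 genes met the same rule of name on other chromosomes. The 9 libraries form 3 groups of 3: shZMAT2-1 and shZMAT2-2, the arms in which the spliceosomal zinc finger protein ZMAT2 was targeted, and the control. All groups share the Huh7 line, and the labels do not give a time after knockdown or say what the control cells received. The study asked whether ZMAT2 acts on hepatocellular carcinoma through mRNA splicing, and its title names TRIM28. Whether the replicates were grown as separate cultures is not stated in the labels, and the p-values therefore cover the spread between these samples alone, which may be technical.

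Most genes of this family encode proteins with a row of C2H2 fingers, small folds that each hold a zinc ion and together read a stretch of DNA. Many also carry a KRAB domain, which binds the corepressor TRIM28. TRIM28 in turn brings in the histone methyltransferase SETDB1 and heterochromatin proteins, and the bound site, often a transposable element, is silenced. The genes arose by repeated duplication and lie side by side in clusters, so neighbours can be close in sequence and counting may split or misassign their reads. Values for close relatives, such as ZNF587 and ZNF417 or ZNF780A and ZNF780B, are uncertain for that reason.

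The family could be recognised from its annotation. Of the 234 genes, 232 are listed in the deposited annotation under the C2H2 transcription factor family, and 197 have a KEGG entry that names KRAB. The other 37 include ZNF274, which has an entry of its own although its protein carries a KRAB domain. The number of C2H2 fingers, read from GENCODE 29 transcripts, had a median of 12 and reached 36 in ZNF208 and 31 in ZNF91. Genes with a KRAB entry had a median of 13 fingers, against 9 in the genes without one. The median GC content of their longest protein-coding transcripts was 41.9% with a KRAB entry and 57.8% without.

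Along the chromosome the genes fell into 20 position clusters when a gap of more than 500 kb began a new one. The largest were cluster 20, with 42 genes from ZNF264 to ZNF446 (chromosome 19, 57191500 to 58481230), and cluster 18, with 36 genes from ZNF175 to ZNF331 (51571283 to 53580269). Cluster 6 held 25 genes from ZNF101 to ZNF98 (19668796 to 22532485) and cluster 7 held 7 genes from ZNF730 to ZNF254 (23075210 to 24129968). Cluster 19 held 15 genes from ZNF628 to ZNF71 (55476617 to 56626481), of which 5 had a KRAB entry. Coordinates are those of the deposited table, for which the sources used here do not name a genome build. All 234 gene IDs overlapped their GENCODE 29 position, and 99 had the same start and end there.

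Members of clusters 6 and 7 had a common promoter sequence. RefSeq (GRCh38.p14) gave the 250 bases before the start of 207 members. In 173 of these the RefSeq start lay within 1 kb of the start in the deposited table. The other windows may not be those of the deposited gene start. The letters CCAAT, on either strand, occurred in 27 of 27 such windows in clusters 6 and 7, and in 80 of 180 windows (44.4%) in the other clusters. It was as frequent in cluster 1 (5 of 5 windows) and nearly so in cluster 4 (22 of 24, 91.7%), while clusters 11, 14 and 18 had it in 4 of 25, 4 of 19 and 8 of 29 windows. Over all 207 windows the share was 51.7%, against 41.9% in ZNF genes on other chromosomes and 33.0% in all 27305 genes. The windows of 6 members are printed 5′ to 3′, with CCAAT or its reverse complement in capitals. The first 3 were chosen from the 27 in clusters 6 and 7. ZNF787 is the member with the highest level, and ZNF616 and ZNF880 are described below for their values in both arms.
ZNF91 (chr19:23395472-23395721, minus strand): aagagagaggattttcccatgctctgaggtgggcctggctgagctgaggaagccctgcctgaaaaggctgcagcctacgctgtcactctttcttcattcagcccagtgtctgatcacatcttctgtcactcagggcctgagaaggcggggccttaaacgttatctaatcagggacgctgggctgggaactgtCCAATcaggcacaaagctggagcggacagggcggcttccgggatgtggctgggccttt
ZNF100 (chr19:21767580-21767829, minus strand): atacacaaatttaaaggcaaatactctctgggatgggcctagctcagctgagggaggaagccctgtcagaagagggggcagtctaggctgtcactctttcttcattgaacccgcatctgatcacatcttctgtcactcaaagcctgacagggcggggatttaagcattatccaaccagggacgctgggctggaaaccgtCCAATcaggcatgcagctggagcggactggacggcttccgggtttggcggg
ZNF675 (chr19:23687213-23687462, minus strand): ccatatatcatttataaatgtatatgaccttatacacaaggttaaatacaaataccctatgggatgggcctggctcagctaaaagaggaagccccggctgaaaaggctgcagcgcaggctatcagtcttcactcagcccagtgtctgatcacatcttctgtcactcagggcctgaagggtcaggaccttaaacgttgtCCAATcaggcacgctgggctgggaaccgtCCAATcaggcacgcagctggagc
ZNF787 (chr19:56121296-56121545, minus strand): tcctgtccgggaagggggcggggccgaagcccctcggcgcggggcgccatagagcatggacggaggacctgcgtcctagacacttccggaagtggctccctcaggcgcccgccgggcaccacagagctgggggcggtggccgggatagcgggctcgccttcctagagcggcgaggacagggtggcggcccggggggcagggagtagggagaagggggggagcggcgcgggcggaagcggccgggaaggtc
ZNF616 (chr19:52139939-52140188, minus strand): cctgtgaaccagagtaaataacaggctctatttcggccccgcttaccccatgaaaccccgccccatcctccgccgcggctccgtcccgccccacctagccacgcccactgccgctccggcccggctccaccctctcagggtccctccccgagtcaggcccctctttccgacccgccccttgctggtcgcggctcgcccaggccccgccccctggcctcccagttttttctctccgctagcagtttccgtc
ZNF880 (chr19:52369673-52369922, plus strand): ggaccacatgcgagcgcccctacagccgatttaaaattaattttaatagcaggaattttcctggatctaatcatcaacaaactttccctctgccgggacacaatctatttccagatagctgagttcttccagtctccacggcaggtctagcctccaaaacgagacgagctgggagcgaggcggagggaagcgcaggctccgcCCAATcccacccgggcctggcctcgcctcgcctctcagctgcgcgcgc

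The windows of ZNF91, ZNF100 and ZNF675 share long runs of letters, and each holds CCAAT followed by CAGGCA. ZNF675 has 2 copies of CCAAT, ZNF91, ZNF100 and ZNF880 have 1 copy each, and ZNF787 and ZNF616 have 0. After global alignment, 351 pairs of windows in clusters 6 and 7 had a median identity of 79.2% (57.6% to 92.0%). The median was 62.0% in cluster 4, 59.6% in cluster 18 and 60.0% in cluster 20. Windows in clusters 6 and 7 held a median of 8 CpG dinucleotides, against 16 in all members, 19 in ZNF genes on other chromosomes and 11 in all genes. The letters CCGGAAGT, also searched on both strands, occurred in 14.5% of members' windows and in 0 of the 27 windows of clusters 6 and 7, against 3.64% of all genes. GGGCGG occurred in 63.8% of members' windows and 42.3% of all genes, and TATAAA in 1.93% and 11.1%. A match describes letters only, and binding was not measured.

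ZMAT2 itself had 15.2, 12.8 and 13.2 FPKM in shZMAT2-1 and 22.1, 20.3 and 20.8 FPKM in shZMAT2-2, against 37.5, 32.8 and 39.2 FPKM in the control. FPKM is fragments scaled to transcript length and to library depth, so levels of different genes can be compared on it. Depth recovered from the values was 18430000 to 23740000 fragments per library. At the shallowest library, 1 FPKM of a member stood for a median of 92.6 fragments. The hepatocyte marker list, 9 of 9 tested, summed to 4990 to 6080 FPKM in shZMAT2-1, 4340 to 5090 FPKM in shZMAT2-2 and 3420 to 6160 FPKM in the control. Of the leukocyte list LYZ alone was tested, at 43.6 to 131 FPKM over the 9 libraries. PTPRC and CD3E were under 0.1 FPKM in all 9 libraries, and CD68 reached at most 0.141 FPKM. The fibroblast and endothelial lists summed to at most 2.18 and 1.70 FPKM in any library. Fragments of the 13 mitochondrially encoded genes made up 7.70% to 16.4% in shZMAT2-1, 14.5% to 27.0% in shZMAT2-2 and 7.86% to 43.2% in the control. Control replicate 2 had the 43.2%.

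Most chromosome 19 ZNF genes had low levels. Their median was 0.921 FPKM over the 9 libraries, against 1.85 FPKM for the ZNF genes on other chromosomes and 2.08 FPKM for all protein-coding genes. Of the 234 genes, 20 averaged under 0.1 FPKM, 105 averaged 0.1 to 1 FPKM, 94 averaged 1 to 5 FPKM, 11 averaged 5 to 10 FPKM and 4 averaged 10 FPKM or more. In all 9 libraries at once 74 genes had at least 1 FPKM. None was at 0 in every library, and 9 were at 0 in at least 1. ZNF536, a regulator of neuronal differentiation that was named after its values were seen, was at 0 in 8 libraries.

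Genes without a KRAB entry had the higher levels, with a median of 3.15 FPKM, against 0.845 FPKM for genes with one. The 8 highest genes held 29.5% of the summed FPKM of all 234, and 7 of the 8 lacked a KRAB entry. ZNF787 had 46.5, 30.4 and 44.6 FPKM in shZMAT2-1, 19.9, 27.8 and 33.8 FPKM in shZMAT2-2 and 33.4, 15.4 and 36.8 FPKM in the control. Its lowest values lay in shZMAT2-2 replicate 1 and control replicate 2, the libraries with 27.0% and 43.2% mitochondrial fragments, and the groups overlapped.

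ZNF146, whose protein consists almost only of fingers, had 22.1, 30.0 and 21.7 FPKM in shZMAT2-1, 27.8, 30.5 and 25.9 FPKM in shZMAT2-2 and 29.1, 23.0 and 29.5 FPKM in the control. ZNF444, which carries a SCAN domain, had 27.3, 21.8 and 24.8 FPKM in shZMAT2-1, 26.8, 20.5 and 26.9 FPKM in shZMAT2-2 and 22.5, 33.5 and 23.3 FPKM in the control. Both stayed within 1.64 times from the lowest to the highest library, with the groups overlapping. ZNF428 varied more, with 20.7, 7.11 and 18.9 FPKM in shZMAT2-1, 5.38, 7.08 and 9.04 FPKM in shZMAT2-2 and 14.1, 4.11 and 14.6 FPKM in the control. Its 4 highest values came from the 4 libraries with 7.70% to 8.28% mitochondrial fragments. ZNF358, ZNF317, ZNF579 and ZNF414 averaged 9.39, 9.21, 7.92 and 7.57 FPKM over the 9 libraries, and ZNF317 was the highest gene with a KRAB entry.

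**Figure D1:**
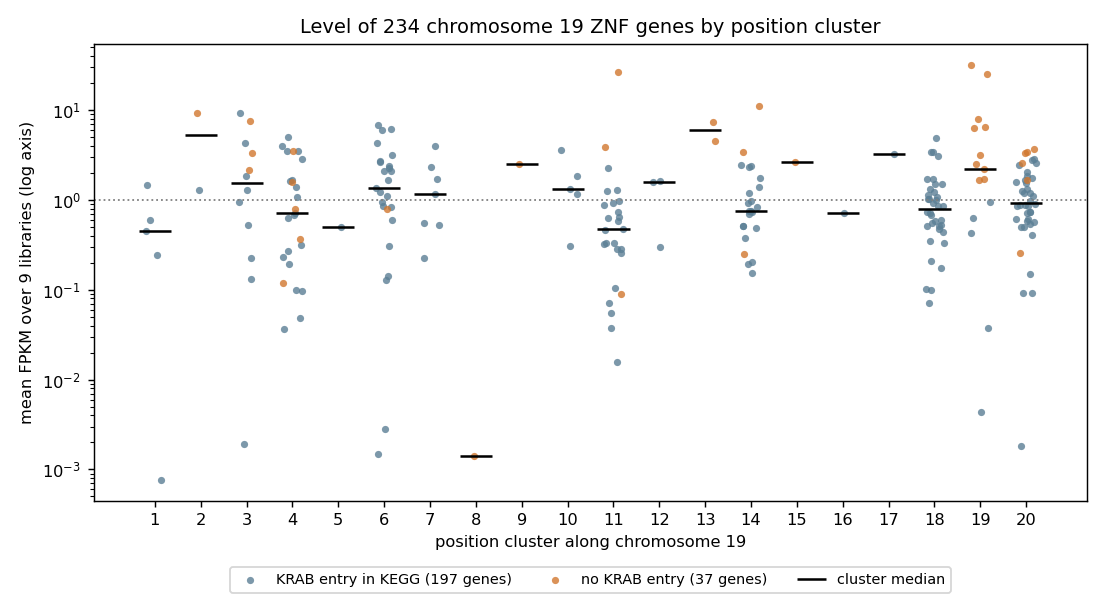
Mean FPKM over the 9 libraries (log axis) of the 234 chromosome 19 ZNF genes, by position cluster from 1 to 20 along the chromosome, with genes that have a KRAB entry in blue, genes without in orange, and the median of each cluster as a black bar. The dotted line marks 1 FPKM. Orange points lead clusters 11, 14 and 19, and the median of cluster 19 was 2.20 FPKM, against 0.471 FPKM in cluster 11.

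Among genes with a described role against transposable elements, those of clusters 6 and 7 had the higher levels. ZNF91, which represses SVA and L1 elements, had 2.06, 4.51 and 2.53 FPKM in shZMAT2-1, 4.75, 4.73 and 3.45 FPKM in shZMAT2-2 and 4.35, 5.17 and 4.21 FPKM in the control. ZNF93, which represses L1 elements, had 4.51, 6.87 and 4.65 FPKM in shZMAT2-1, 7.55, 7.41 and 7.22 FPKM in shZMAT2-2 and 5.22, 6.96 and 5.59 FPKM in the control. Both were low in shZMAT2-1 replicates 1 and 3, and replicate 2 of that arm lay among the control values. In shZMAT2-2 ZNF91 overlapped the control, while ZNF93 lay above all other libraries. Against the control alone, 11.9% of all tested genes lay above it in shZMAT2-2. ZNF587 and ZNF417, near-identical genes described as repressors of HERVK elements, averaged 2.53 ± 0.768 and 1.65 ± 0.681 FPKM in shZMAT2-1, 2.68 ± 0.432 and 1.52 ± 0.352 FPKM in shZMAT2-2 and 2.61 ± 0.530 and 1.59 ± 0.432 FPKM in the control (SD, n = 3 each). In each gene the group means differed by less than the SD of any group. ZNF765, which binds L1 elements, and ZNF808, which is needed for pancreas development, averaged 0.742 and 0.507 FPKM over the 9 libraries and fell below the filter of the main test.

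Other members with a described role had levels of a few FPKM or less. ZNF274, which brings SETDB1 to the ends of ZNF genes, had 4.36, 4.39 and 4.45 FPKM in shZMAT2-1, 3.16, 3.98 and 4.05 FPKM in shZMAT2-2 and 3.44, 1.88 and 3.75 FPKM in the control. All shZMAT2-1 values lay above the control, while shZMAT2-2 overlapped it, and control replicate 2 was the lowest library. ZNF675, an inhibitor of TRAF6 signalling, had 1.19, 2.94 and 1.47 FPKM in shZMAT2-1, 3.39, 2.85 and 2.38 FPKM in shZMAT2-2 and 1.74, 3.38 and 1.84 FPKM in the control. ZNF653, a repressor of nuclear receptor activity, varied least among these, with 1.79, 1.78 and 1.67 FPKM in shZMAT2-1, 1.47, 1.54 and 1.54 FPKM in shZMAT2-2 and 1.58, 1.36 and 1.39 FPKM in the control. Its shZMAT2-1 libraries lay above all others. ZNF580 averaged 2.20 FPKM and overlaps ZNF581 on the same strand, so reads of this pair may be shared between them. ZNF224, a repressor of the aldolase A gene, and ZNF382, a tumour suppressor gene silenced by methylation in several cancers, averaged 0.490 and 0.0556 FPKM and were not tested.

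To ask which genes differed with less ZMAT2, limma was fitted to log2(FPKM + 1) of the 11245 genes that reached 1 FPKM in 3 libraries or more. This scale understates the change of low genes. Of the 234 members 122 passed the filter (52.1%) and 112 did not, against 176 of 241 ZNF genes on other chromosomes (73.0%). The threshold for a call was an adjusted p under 0.05 (two-sided, Benjamini-Hochberg over all tested genes). In these bulk samples, fewer cells with a transcript and less of it per cell cannot be told apart.

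No member was called in any comparison by limma. In shZMAT2-1 against the control 0 of 122 passed, against 0.0800% of all tested genes, and 7 members had an unadjusted p under 0.05 (5.76% of all tested genes did). In shZMAT2-2 against the control 0 of 122 passed, against 0.587% of all tested genes, and 0 had an unadjusted p under 0.05 (7.00% of all tested genes did). For the mean of both arms 0 passed, against 0.542%, and 3 had an unadjusted p under 0.05 (6.93% of all tested genes did). In shZMAT2-2 against shZMAT2-1 0 passed, against 0% of all tested genes, and 3 had an unadjusted p under 0.05 (4.14% of all tested genes did). At called shares this low, fewer than 1 called member is what the background share of 122 genes comes to. The targeted gene ZMAT2 was called lower in shZMAT2-1 (log2 difference -1.35 ± 0.17, SE, limma adjusted p = 0.028). In shZMAT2-2 it was not called (-0.76 ± 0.17, SE, limma adjusted p = 0.11), although its values there lay below the control. The lack of calls in that arm therefore does not show that the members were unchanged.

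Some other fits called 1 to 34 members in a comparison, each time a smaller share than among all tested genes. With the mitochondrial share as a covariate, 1 member was called in shZMAT2-1 (ZNF296), 0 in shZMAT2-2 and 2 in the mean of both arms (ZNF274 and ZNF880), beside 3.73%, 9.84% and 9.75% of all tested genes. Without control replicate 2 and shZMAT2-1 replicate 2 together, 0 were called in shZMAT2-1, 15 in shZMAT2-2 (3 higher and 12 lower) and 1 in the mean (ZNF780B), beside 1.24%, 30.2% and 4.10%. In that fit 34 members were called between the arms, 18 higher and 16 lower in shZMAT2-2, beside 42.3% of all tested genes. Of the 18, 12 lie in clusters 6 and 7, among them ZNF91 (0.68, limma adjusted p = 0.0041) and ZNF93 (0.59, limma adjusted p = 0.0027). The shZMAT2-2 libraries in that fit held 14.5% to 27.0% mitochondrial fragments and the shZMAT2-1 libraries 7.70% and 8.25%. With all 9 libraries the differences of ZNF91 and ZNF93 between the arms were 0.43 and 0.42 (limma adjusted p = 0.66 each). The left-out shZMAT2-1 replicate 2 was the highest of its arm in 18 of the 21 tested genes of clusters 6 and 7. Leaving it out therefore favoured these calls.

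The estimates with all 9 libraries in shZMAT2-1 ran from -0.51 in ZNF91 to 0.56 in ZNF787, and in shZMAT2-2 from -0.41 in ZNF428 to 0.35 in ZNF414. The median half-width of the 95% interval was 0.39 in each arm. The members' median log2 difference was 0.03 in shZMAT2-1, against 0.16 over all tested genes and 0.03 over ZNF genes on other chromosomes. In shZMAT2-2 it was 0.02, against 0.05 and 0.06. Without control replicate 2 both turned, to -0.08 in each arm. This library was the lowest of all 9 for 54.9% of the members and 70.8% of all tested genes. The 2 arms share the control libraries.

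**Figure D2:**
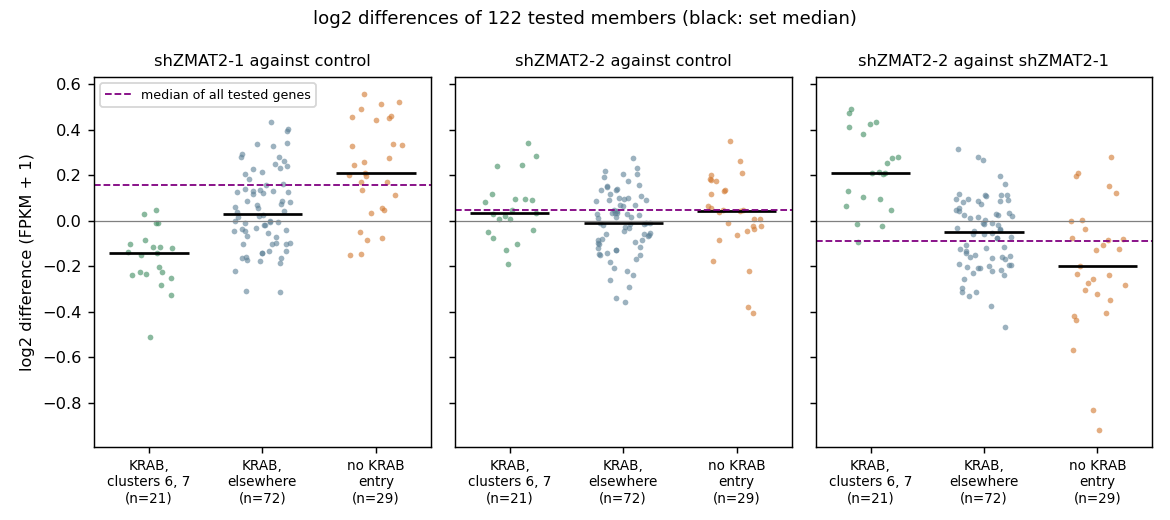
log2 differences of the 122 tested members (points) in 3 comparisons, split into members of clusters 6 and 7, other members with a KRAB entry and members without one, with the median of each set as a black bar and the median of all tested genes as a dashed line. In shZMAT2-1 against the control the set medians were -0.14, 0.03 and 0.21, and in shZMAT2-2 against the control they were 0.03, -0.01 and 0.04.

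A few genes had libraries of both arms on 1 side of all control libraries. These were ZNF331, ZNF880 and ZNF865, higher in both arms, and ZNF616, lower in both. The 4 genes are 3.28% of the 122 members, against 5.37% of all tested genes, so the share is no larger than the background. Taken by direction, the shares were 2.46% higher and 0.820% lower in the members, against 4.69% and 0.685% in all tested genes. None of the 4 was called.

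ZNF616, a KRAB gene with 21 fingers in cluster 18, had 0.774, 0.792 and 0.888 FPKM in shZMAT2-1, 0.894, 1.00 and 0.898 FPKM in shZMAT2-2 and 1.30, 1.26 and 1.21 FPKM in the control. It passed the filter through the 3 control libraries and shZMAT2-2 replicate 2, so its direction was favoured by the filter. Its log2 difference was -0.31 ± 0.11 in shZMAT2-1 and -0.22 ± 0.11 in shZMAT2-2 (SE, limma adjusted p = 0.63 and 0.80). ZNF880, a KRAB gene of the same cluster, had 1.85, 2.38 and 2.07 FPKM in shZMAT2-1, 1.80, 1.78 and 1.75 FPKM in shZMAT2-2 and 1.32, 0.999 and 1.59 FPKM in the control. The shZMAT2-2 values lay close together, above the highest control. Its log2 difference was 0.43 ± 0.14 in shZMAT2-1 and 0.28 ± 0.14 in shZMAT2-2 (SE, limma adjusted p = 0.57 and 0.83).

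ZNF331, an imprinted gene that is rearranged in thyroid adenomas, had 1.55, 1.78 and 1.73 FPKM in shZMAT2-1, 1.55, 1.51 and 1.69 FPKM in shZMAT2-2 and 1.41, 0.987 and 1.35 FPKM in the control. The lowest value was that of control replicate 2, and the other control libraries lay close under the arms. ZNF865, a gene of cluster 19 that was named after its values were seen, had 6.63, 6.96 and 6.79 FPKM in shZMAT2-1, 6.10, 6.46 and 7.31 FPKM in shZMAT2-2 and 5.59, 5.33 and 5.83 FPKM in the control. Its log2 difference was 0.24 ± 0.15 in shZMAT2-1 and 0.21 ± 0.15 in shZMAT2-2 (SE, limma adjusted p = 0.81 and 1.0).

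ZNF296 had the smallest adjusted p of any member. This gene, known in mouse as a partner of Klf4 in reprogramming, had 3.55, 3.31 and 3.54 FPKM in shZMAT2-1, 2.11, 2.32 and 2.73 FPKM in shZMAT2-2 and 1.89, 2.09 and 2.39 FPKM in the control. The shZMAT2-1 libraries stood above all others, and shZMAT2-2 overlapped the control. Its log2 difference was 0.52 ± 0.14 in shZMAT2-1 (SE, limma adjusted p = 0.37) and 0.12 ± 0.14 in shZMAT2-2 (SE, limma adjusted p = 1.0). The difference of shZMAT2-2 from shZMAT2-1 was -0.40 ± 0.14 (SE, limma adjusted p = 0.66). With the mitochondrial share as a covariate the shZMAT2-1 difference was 0.51 and passed (limma adjusted p = 0.032, 0.032 to 1.0 over the alternatives).

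ZNF784 and ZNF875 were the other members with the smallest p in shZMAT2-1. ZNF784 had 4.10, 3.02 and 4.77 FPKM in shZMAT2-1, 2.87, 2.68 and 3.39 FPKM in shZMAT2-2 and 2.79, 2.64 and 2.11 FPKM in the control. ZNF875 had 2.65, 2.91 and 2.82 FPKM in shZMAT2-1, 1.90, 2.32 and 2.31 FPKM in shZMAT2-2 and 2.10, 1.33 and 2.32 FPKM in the control. In both genes shZMAT2-1 lay above the control and shZMAT2-2 overlapped it. In shZMAT2-1 alone 13 members lay above and 1 below all control libraries (11.5% in all, against 10.9% of all tested genes, of which 9.10% were higher and 1.83% lower), and in shZMAT2-2 alone 7 above and 1 below (6.56%, against 13.4%, of which 11.9% were higher and 1.52% lower).

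**Figure D3:**
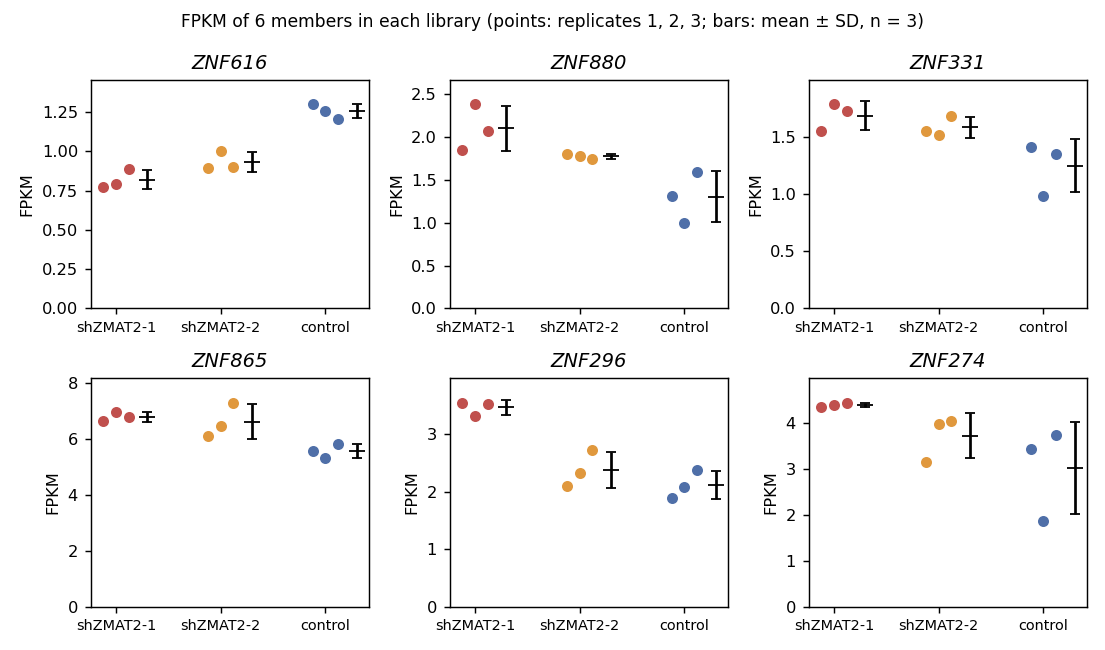
FPKM of ZNF616, ZNF880, ZNF331, ZNF865, ZNF296 and ZNF274 in each library, with shZMAT2-1, shZMAT2-2 and control from left to right, a point for each of replicates 1, 2 and 3, and the mean ± SD (n = 3) beside them. ZNF616 is the gene whose arms lie below the control, at 0.774 to 1.00 FPKM against 1.21 to 1.30 FPKM, while in ZNF296 the shZMAT2-1 points stand apart.

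Against the control the smallest p values in shZMAT2-2 beyond those genes belonged to ZNF414 and ZNF30. ZNF414 had 8.57, 7.69 and 9.37 FPKM in shZMAT2-2 and 5.01, 8.47 and 6.31 FPKM in the control, and its groups overlapped through control replicate 2. ZNF30, a KRAB gene of cluster 10, had 1.07, 0.951 and 1.19 FPKM in shZMAT2-2 and 1.64, 0.956 and 2.14 FPKM in the control, where replicate 2 again lay among the knockdown values. Without control replicate 2, 0 members were called in shZMAT2-1 beside 0.293% of all tested genes and 0 in the mean of the arms beside 1.33%, and ZNF780B was called lower in shZMAT2-2 (log2 difference -0.63, limma adjusted p = 0.041), beside 2.40% of all tested genes. ZNF780B had 1.09, 1.58 and 1.31 FPKM in shZMAT2-2 and 2.67, 0.951 and 2.52 FPKM in the control.

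Clusters 6, 7 and 19 are described next for their estimates in the 2 arms. They were picked out after their values were seen, have no test, and hold no member called between the arms with all 9 libraries. Of 21 tested genes in clusters 6 and 7, 2 had a higher estimate in shZMAT2-1 than in the control (9.52%, median -0.14), and 15 had one in shZMAT2-2 (71.4%, median 0.03). The median of shZMAT2-2 against shZMAT2-1 was 0.21, with 18 of 21 higher, against -0.09 over all tested genes. The shZMAT2-1 median was -0.05 without shZMAT2-1 replicate 1 and -0.33 without shZMAT2-1 replicate 2. In shZMAT2-2 the median turned to -0.02 with median-of-ratios scaling or quantile normalization, to -0.03 without shZMAT2-2 replicate 2 and to -0.01 without shZMAT2-2 replicate 1. Of 11 tested genes in cluster 19, 9 had a higher estimate in shZMAT2-1 than in the control (81.8%, median 0.24), against 72.9% of all tested genes (median 0.16). In shZMAT2-2 6 of the 11 had one (54.5%, median 0.07), against 58.4% of all tested genes (median 0.05). The median of shZMAT2-2 against shZMAT2-1 was -0.27 there, and 0.10 with TPM over nuclear genes. The shZMAT2-1 median was 0.09 without control replicate 2 and 0.40 without shZMAT2-1 replicate 2, and that of shZMAT2-2 turned to -0.02 with median-of-ratios scaling and without shZMAT2-2 replicate 3.

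By library, in clusters 6 and 7 the median deviation from the mean of the 9 libraries was -0.31, 0.22 and -0.28 in shZMAT2-1 replicates 1, 2 and 3, 0.17, 0.21 and -0.11 in those of shZMAT2-2, and -0.02, 0.08 and 0.03 in those of the control. In 18 of the 21 genes both shZMAT2-1 replicates 1 and 3 lay below replicate 2, and in 2 genes both lay above it. Those 2 libraries had 8.25% and 7.70% mitochondrial fragments, against 16.4% in replicate 2. The shares were 27.0%, 14.5% and 16.6% in shZMAT2-2 replicates 1, 2 and 3, and 7.86%, 43.2% and 8.28% in those of the control. Control replicate 2 lay above both other control libraries in 11 of the 21 genes and below both in 7. In cluster 19 the deviations were 0.23, -0.02 and 0.30 in shZMAT2-1, -0.14, -0.05 and 0.10 in shZMAT2-2 and -0.01, -0.21 and 0.00 in the control. The part of the mitochondrial share in these differences was not tested.

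ZNF253, a gene of cluster 6 named after its values were seen, had 3.77, 8.999 and 4.45 FPKM in shZMAT2-1, 8.31, 9.03 and 5.55 FPKM in shZMAT2-2 and 6.46, 8.31 and 6.39 FPKM in the control. ZNF100 had 1.66, 3.90 and 2.25 FPKM in shZMAT2-1, 4.71, 3.94 and 3.16 FPKM in shZMAT2-2 and 2.50, 3.26 and 2.88 FPKM in the control. In both, shZMAT2-1 replicates 1 and 3 were the lowest of all 9 libraries. ZNF581 of cluster 19 went the other way, with 10.9, 5.69 and 9.32 FPKM in shZMAT2-1, 2.84, 4.95 and 5.39 FPKM in shZMAT2-2 and 8.55, 2.51 and 8.62 FPKM in the control. Its 4 highest libraries were those with the 4 lowest mitochondrial shares. For ZNF226, a KRAB gene of cluster 14, the values were 1.06, 1.20 and 1.17 FPKM in shZMAT2-2 and 1.77, 1.67 and 1.88 FPKM in shZMAT2-1, with no overlap (log2 difference -0.37 ± 0.15, SE, limma adjusted p = 0.66). Between the arms 2 members lay higher and 19 lower in shZMAT2-2 with no overlap, 17.2% of members against 14.9% of all tested genes (5.59% higher and 9.28% lower).

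**Figure D4:**
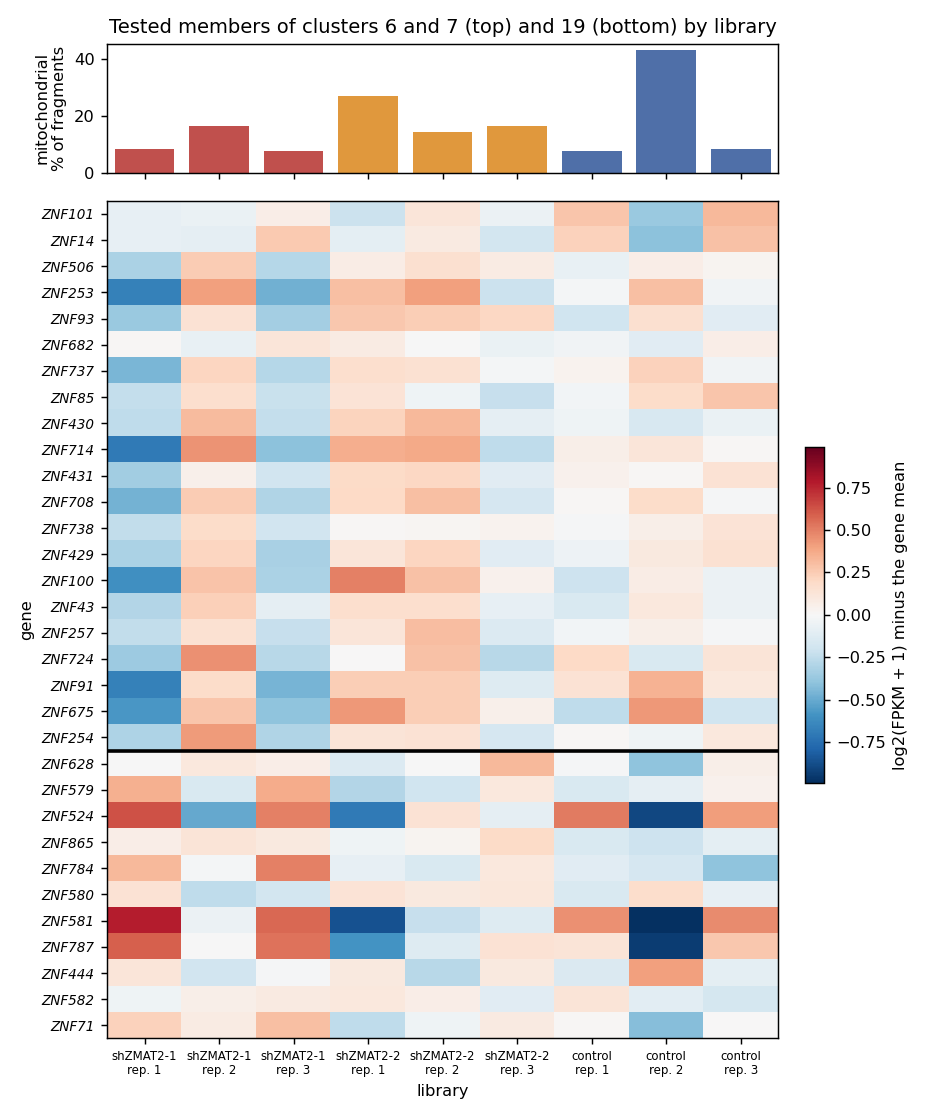
log2(FPKM + 1) minus the mean over the 9 libraries for the 21 tested genes of clusters 6 and 7 (above the black line) and the 11 of cluster 19 (below it), with the mitochondrial percent of fragments of each library as bars on top. Libraries run from shZMAT2-1 through shZMAT2-2 to control. Clusters 6 and 7 are blue in shZMAT2-1 replicates 1 and 3, with medians of -0.31 and -0.28, while ZNF581 and ZNF787 are darkest blue in control replicate 2 and shZMAT2-2 replicate 1, where the bars are tallest.

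In shZMAT2-1 and between the arms, the medians moved with GC content in members and in all tested genes, which include the members. In shZMAT2-2 against the control, the order of the GC ranges differed between members and all tested genes. The 41 tested members of lowest GC (34.1% to 40.9%) had a median log2 difference of -0.10 in shZMAT2-1 and 0.02 in shZMAT2-2, against 0.03 and 0.11 for the 1965 tested genes in the same range. The 41 members of middle GC (40.9% to 45.8%) had -0.01 and -0.02, against 0.10 and 0.08 for the 2139 tested genes in that range. The 40 members of highest GC (46.0% to 71.1%) had 0.24 and 0.05, against 0.24 and 0.02 for the 6003 tested genes in that range. Between the arms the median of shZMAT2-2 against shZMAT2-1 was 0.09 in the members of lowest GC and -0.20 in those of highest GC, against 0.09 and -0.21 in all tested genes of the same ranges. The median GC content was 37.5% in clusters 6 and 7 and 61.7% in cluster 19. Its part in the differences was not tested.

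With a KRAB entry 93 members were tested, and their median difference was -0.01 in shZMAT2-1 and 0.02 in shZMAT2-2. With TPM the shZMAT2-1 value was 0.17, and with TPM over nuclear genes it was -0.16. Without one 29 were tested, with medians of 0.21 and 0.04, and 24 of the 29 had a higher estimate in shZMAT2-1 than in the control. Over all tested genes 72.9% had a higher estimate there. The median of the genes without a KRAB entry in shZMAT2-1 was 0.07 without control replicate 2 and 0.00 with TPM over nuclear genes, and that in shZMAT2-2 turned to -0.08 without control replicate 2. That library was the lowest of all 9 for 67 of the 122 members (54.9%), against 70.8% of all tested genes.

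The genes that work with KRAB proteins did not pass the test either. TRIM28 had 190, 107 and 175 FPKM in shZMAT2-1, 72.2, 98.6 and 125 FPKM in shZMAT2-2 and 149, 52.6 and 148 FPKM in the control, so the groups overlapped. SETDB1, the methyltransferase that TRIM28 recruits, had 5.42, 6.30 and 5.25 FPKM in shZMAT2-1, 5.45, 5.92 and 5.61 FPKM in shZMAT2-2 and 5.31, 3.30 and 4.72 FPKM in the control. Its shZMAT2-2 values lay above the control, as did those of 11.9% of all tested genes, and shZMAT2-1 overlapped it. Control replicate 2 was the lowest library. The log2 differences were 0.30 ± 0.18 in shZMAT2-1 and 0.31 ± 0.18 in shZMAT2-2 (SE, limma adjusted p = 0.81 and 0.92). Of a list of 26 genes, TRIM28 and its silencing partners, all tested, 0 were called in each of the 4 comparisons by limma. Their median log2 difference was 0.02 in each arm against the control, and 14 of the 26 had a higher estimate in each, not all of them the same genes. Over all tested genes 72.9% had a higher estimate in shZMAT2-1 and 58.4% in shZMAT2-2.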

How the data were processed

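RNA from 9 Huh7 libraries was sequenced after poly(A) selection with a strand-specific protocol, per the labels' protocols. The authors deposited FPKM values per gene, and all 9 sample columns were used. Per the submitters' processing notes, the tools included HISAT, featureCounts and DESeq2, with no version given, and how multiply mapped reads were counted is not stated. Depth was recovered from single-exon genes, of whose deposited FPKM 99.87% to 100% per library were whole multiples of 1 fragment within 0.1 fragments.

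limma 3.58.1 in R 4.3.3 was fitted with a trend to log2(FPKM + 1) of 11245 genes in all 9 libraries, with the group as the only term and p-values adjusted over all tested genes. The procedure was tested on simulated data. The members and lists were chosen with earlier results of these data known. Named members are the 8 of highest mean FPKM, the 5 of smallest p in each comparison, those called, and 15 with a described role. Others are stated as named after their values were seen.

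Transcript GC content and fingers (a pattern with 12 residues between its cysteines and histidines) came from GENCODE 29 transcripts, the KRAB entry from the deposited KEGG column, and promoters from RefSeq. Protein sequences were not used. Alternatives were another pseudocount, filter or scaling, no trend, a mitochondrial covariate, a replicate block, left-out libraries, and only the groups compared. Python 3.11.15 with pandas 2.3.3 and matplotlib 3.10.9 did the rest.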

Additional observations from a re-analysis of the deposited data

How the results depend on the processing

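The counts and medians were recomputed under 22 alternatives, or 21 for the mean of both arms, where a fit on only the groups compared was not run. Named members below a filter of 5 FPKM have 1 fewer. The number of called members, 0 in each comparison, moved under 3 alternatives. With the mitochondrial covariate it was 1 in shZMAT2-1 (ZNF296) and 2 in the mean of both arms (ZNF274 and ZNF880). Leaving out 1 library gave 0 to 1 in shZMAT2-2 and 0 in the other comparisons. Without control replicate 2 and shZMAT2-1 replicate 2 together it was 15 in shZMAT2-2, 1 in the mean (ZNF780B) and 34 in shZMAT2-2 against shZMAT2-1, where 30.2%, 4.10% and 42.3% of all tested genes were called. The members' median difference between the arms was -0.219 with TPM and 0.159 with TPM over nuclear genes. TPM moved the median of all tested genes to 0.32 in shZMAT2-1 and -0.27 between the arms. The 5 members of smallest p in each comparison gave 20 pairs of member and comparison. They were picked for a small p in these same data, so a kept sign was favoured by the choice. All 20 kept their sign under every alternative run, and 11 passed under none. The cause of the changes was not tested.

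With the replicate block 0 members were called in each comparison, beside 0.116% of all tested genes in shZMAT2-1, 0.462% in shZMAT2-2, 0.516% in the mean and 0% between the arms. Same-numbered libraries correlated at -0.76 to 0.78 in their deviations from the group means, and 2 of 9 correlated best with their own number in both other groups, so the numbers were not taken as pairs. The filter left out 112 members. With no filter all 234 were tested and 0 were called in each comparison, beside 0.0292%, 0.27%, 0.222% and 0% of all genes in the same order.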
